A study of Mus musculus with 20 samples.

Results

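The circadian clock genes described here are 10 genes of the negative and accessory arms of the clock: the bHLH repressor genes Bhlhe40 and Bhlhe41, the period genes Per1, Per2 and Per3, the cryptochrome genes Cry1 and Cry2, the nuclear receptor genes Nr1d1 and Nr1d2, and the output factor gene Dbp. They were measured in Hepa1-6 cells, an established mouse hepatoma line of strain C57L, on 20 Affymetrix arrays. All probe sets that the platform annotation maps to these symbols alone were taken, which gave 20 of the 34945 probe sets with exactly 1 gene. Per3 had 6 probe sets, Per2 had 3, Bhlhe41, Nr1d2 and Dbp had 2 each, and the other 5 genes had 1 each. In counts of genes, the brightest probe set over all arrays stands for its gene, so that the 10 genes stood among 18193.

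All cultures, treated and untreated, had been washed and moved to medium depleted of growth factors 4 h before the start. Treated cultures then received 1 ng/ml TGFβ1 for 0, 1, 3, 6 or 10 h, and untreated cultures were taken at the same times without it, with 2 biological replicates in each of the 10 groups. The labels state that both 0 h groups are equivalent. The line is a tumour cell line in culture, and the labels name no step to set the phase of its clock.

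In the core clock, CLOCK and BMAL1 (the product of Arntl) bind E-box sequences and switch on the period and cryptochrome genes, whose products repress them in turn. BHLHE40 and BHLHE41, also called DEC1 and DEC2, bind E-boxes and repress the same promoters. The REV-ERB receptors encoded by Nr1d1 and Nr1d2 repress Arntl, and DBP activates genes through D-box sequences, which NFIL3 occupies as a repressor. Liver is a tissue with strong daily rhythms of these transcripts, and several of the genes also answer directly to growth factors, hormones and a change of medium.

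The clock elements themselves are shown first, since they are the sequences on which these regulators act. Promoter sequence came from RefSeq (GRCm38.p6), for 8 of the 10 genes and 9 start sites. The 250 bases before each start were searched on both strands. Bhlhe40 and Per2 had no window in the sequences used, so neither was searched and no count below covers them. The capitals mark the E-box CACGTG in Bhlhe41 (chr6:145865538-145865603, minus strand), Per1 (chr11:69098753-69098818, plus strand) and Cry1 (chr10:85185079-85185144, minus strand), and a pair of D-boxes TTATGTAA in Per3 (chr4:151044786-151044900, minus strand).
Bhlhe41: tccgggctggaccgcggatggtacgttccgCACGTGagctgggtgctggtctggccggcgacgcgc
Per1: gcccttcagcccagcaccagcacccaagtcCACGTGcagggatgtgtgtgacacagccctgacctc
Cry1: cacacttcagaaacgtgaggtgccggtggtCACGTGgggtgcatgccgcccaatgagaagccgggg
Per3: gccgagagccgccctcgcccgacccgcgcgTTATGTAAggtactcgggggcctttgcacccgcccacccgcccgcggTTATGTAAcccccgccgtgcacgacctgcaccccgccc
The E-box lies 60 to 55 bases before the start in Cry1, 166 to 161 in Per1 and 153 to 148 in Bhlhe41. CACGTG was found at 3 of these 9 starts and in 6.02% of all 32851 windows of this length, and a D-box (TTATGTAA or TTACGTAA) at 1 of 9 and in 0.931% of all. The cyclic AMP element TGACGTCA, the SMAD sequences AGCCAGACA and GTCTAGAC and the ROR element were found at 0 of the 9. In this order, they were found in 1.55%, 0.301%, 0.167% and 0.332% of all windows, so 9 windows are too few to show a lack. A match is a description of the letters and not a measured site.

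Each array gave 1 RMA value per probe set, on the log2 scale, with array medians between 5.15 and 5.21. The duplicates of a group correlated at 0.9958 or better over all probe sets. At 0 h, limma called 0 of the 18193 genes (0%) different between the groups labelled treated and untreated, although 740 had an unadjusted p under 0.05; of the 10 clock genes, 0 had an unadjusted p under 0.05. Of 7 measured hepatocyte markers, 6 lay above the array median on all 20 arrays, with Alb at 11.72 to 12.46 and Afp at 12.41 to 12.99. All 4 cholangiocyte markers did so too, as did Dcn and Des among 6 stellate cell or fibroblast markers, Csf1r among 5 macrophage markers, 0 of 5 endothelial and 0 of 3 lymphocyte markers. Some of these markers moved with treatment. Sox9 was higher at 1 h, Krt7, Sox9, Epcam and Col1a1 at 3 h and 6 h, Apoa1 at 3 h, Pdgfrb at 6 h and Krt7, Epcam and Col1a1 at 10 h, and Afp was lower from 1 h on, Fgb from 3 h and Alb from 6 h. The log2 values of the 7 hepatocyte markers summed to 55.79 to 56.11 in treated against 56.26 to 56.45 in untreated arrays at 3 h. They summed to 55.02 to 55.82 against 57.26 to 57.86 at 6 h and to 55.57 to 55.96 against 58.27 to 58.30 at 10 h. At 0 h the sums were 56.01 to 56.06 against 55.32 to 55.48, and at 1 h they overlapped. Those of the 4 cholangiocyte markers summed to 36.60 to 36.86 against 34.96 to 35.09 at 1 h and to 35.87 to 36.53 against 34.79 to 35.41 at 3 h. They summed to 35.99 to 36.30 against 34.03 to 35.17 at 6 h and to 35.57 to 35.67 against 34.56 to 34.59 at 10 h. Those of the 6 stellate cell markers were lower in treated arrays at 0 h (35.38 to 36.08 against 36.19 to 36.27) and 1 h (36.29 to 36.35 against 36.82 to 36.97), higher at 3 h (37.53 to 37.54 against 36.46 to 36.48) and 6 h (37.29 to 38.10 against 35.95 to 36.15), and overlapped at 10 h. Sums of the dimmer lists also separated at some times. Macrophage sums were higher in treated arrays at 0 h (28.29 to 28.54 against 27.80 to 27.99) and lower at 6 h. Endothelial sums were lower in treated arrays at 0 h (20.10 to 20.77 against 21.02 to 21.30), 1 h and 10 h and higher at 3 h. Lymphocyte sums were lower at 3 h. The part of these shifts in the clock gene results was not tested.

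In cells given TGFβ1, Bhlhe40 was higher at every time from 1 h to 10 h, Nr1d2 was lower at 3 h and 6 h, Dbp was lower from 3 h to 10 h and Per1 was lower at 6 h. The brightest probe sets of the other 6 genes were not called at any time. At 1 h 1 of the 10 genes was higher (1.91% of all genes were) and 0 were lower (0.324% of all). At 3 h 1 was higher (6.73%) and 2 were lower (8.55%), at 6 h 1 was higher (7.77%) and 3 were lower (7.96%), and at 10 h 1 was higher (5.07%) and 1 was lower (4.06%). The median difference over the 10 genes was 0.08 at 1 h, −0.08 at 3 h, −0.09 at 6 h and −0.10 at 10 h on the log2 scale, beside −0.01, −0.02, −0.03 and −0.0030 for all genes. Tested one by one, 2 of the 20 probe sets were called at 1 h (1.71% of all probe sets), 5 at 3 h (11.3%), 4 at 6 h (11.3%) and 3 at 10 h (5.83%). The arrays of both groups did not overlap in 8 of the 20 probe sets at 0 h, 9 at 1 h, 12 at 3 h, 8 at 6 h and 13 at 10 h, beside 32.3%, 34.7%, 48.9%, 47.6% and 47.1% of all probe sets. At 10 h, 11 of the 20 had both treated arrays below both untreated ones, as did 22.3% of all probe sets; 5 of the 11 belong to Per3.

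Bhlhe40 had the largest difference of the 10 genes at 1 h, 3 h and 6 h, 7.39-fold at 1 h. It stood at 8.14 and 8.16 against 8.27 and 8.26 at 0 h. It then stood at 11.14 and 11.13 in the cultures treated for 1 h against 8.12 and 8.38 in untreated ones, at 10.85 and 10.81 against 8.51 and 8.52 at 3 h, at 10.33 and 10.41 against 8.76 and 8.64 at 6 h, and at 9.16 and 9.13 against 8.57 and 8.51 at 10 h. Treated arrays lay above untreated ones at all 4 times after 0 h, and the excess shrank with each step. The log2 difference was 2.89 ± 0.07 (SE, n = 2 against 2; limma, adjusted p = 2.14e-17) at 1 h, 2.31 ± 0.07 at 3 h, 1.67 ± 0.07 at 6 h and 0.61 ± 0.07 at 10 h (adjusted p = 2.55e-06). In a bulk sample, more RNA per cell and more cells of a kind that expresses a gene cannot be told apart, for this and every later difference. By size, Bhlhe40 was the 5th highest difference of 18193 genes at 1 h, the 20th at 3 h, the 41st at 6 h and the 153rd at 10 h.

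**Figure D1:**
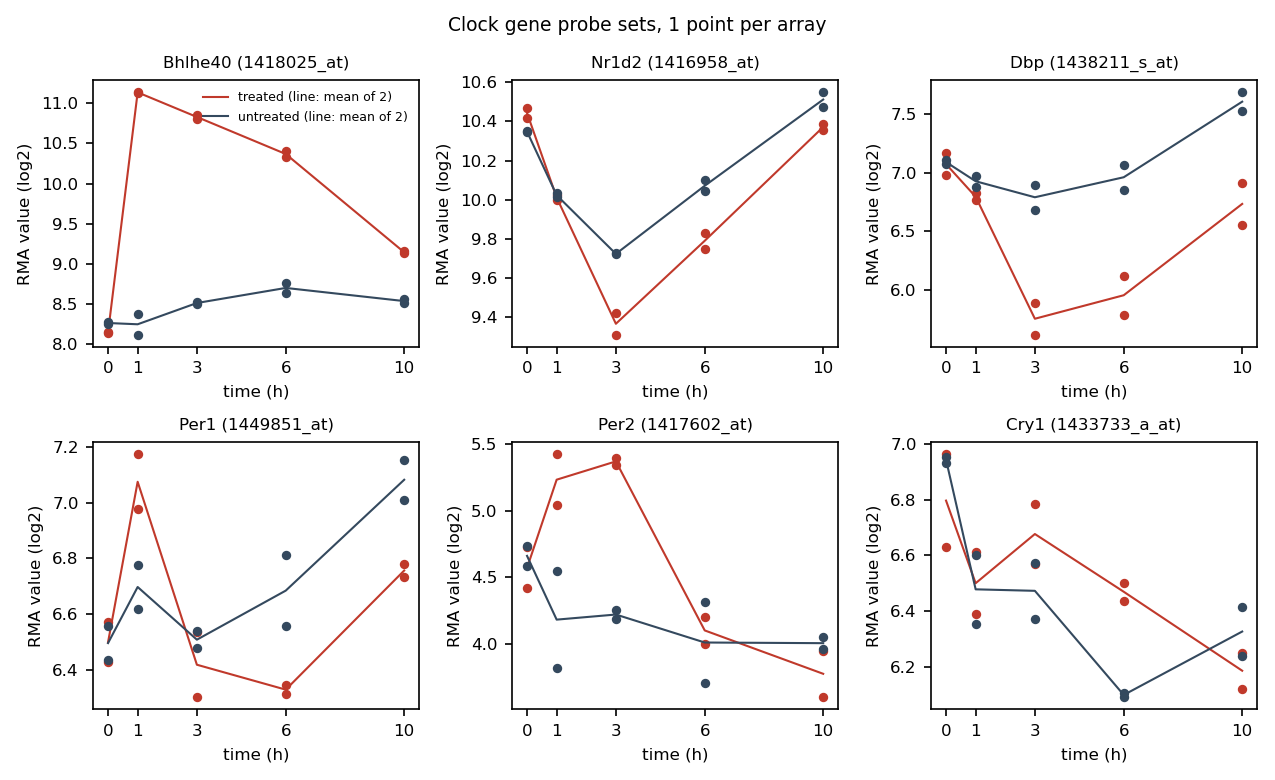
RMA values (log2) of 6 clock genes, each by the probe set whose group means span most, against time in hours, 1 point per array, with lines through the means of 2 arrays, treated with TGFβ1 in red and untreated in dark blue. Bhlhe40 peaks at 1 h in treated cells and comes down to 9.15 at 10 h. Nr1d2 dips at 3 h in both groups and deeper in treated cells. Dbp is called lower in treated cells from 3 h on.

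The decline of the Bhlhe40 response was itself larger than the replicate error at every step. The treated-minus-untreated difference changed by −0.57 ± 0.10 (SE) from 1 h to 3 h (limma, adjusted p = 4.22e-04), by −0.65 ± 0.10 from 3 h to 6 h (adjusted p = 2.92e-04) and by −1.06 ± 0.10 from 6 h to 10 h (adjusted p = 1.31e-06). From 1 h to 3 h the difference moved down in 3 of the 10 genes, Bhlhe40, Nr1d2 and Dbp (3.94% of all genes), from 3 h to 6 h in Bhlhe40 (1.69%) and from 6 h to 10 h in Bhlhe40 (1.33%). The 5 genes whose values followed Bhlhe40 most closely over the 20 arrays, among the 933 other genes whose group means spanned at least 1 on the log2 scale, were Pdgfb (Pearson r = 0.986), Junb (0.986), Slc25a33 (0.970), Ccn1 (0.964) and Tnfrsf12a (0.955). The arrays share the treatment and the time course, so these coefficients describe likeness of pattern alone.

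Bhlhe41, the paralog of Bhlhe40, did not pass the test in any comparison. Its brighter probe set ran from 4.38 to 4.99 and the other from 3.26 to 3.86 over the 20 arrays, below the array median on every array. The groups overlapped at 1 h and 6 h for both probe sets. At 3 h treated arrays lay below untreated ones for both, and at 10 h above them for the brighter one. The brighter one also had treated arrays below untreated ones at 0 h, with means of 4.46 against 4.66, where the labels call the groups equivalent. At 1 h, when Bhlhe40 differed most, the Bhlhe41 difference was −0.13 with a 95% interval of −0.45 to 0.18. RMA compresses differences of such dim probe sets, so the interval bounds the measured value and not the transcript.

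The period genes gave mixed results, and for Per2 they depended on the probe set. Per1, a fast-acting repressor that is also an immediate early gene, stood at 6.98 and 7.17 in cells treated for 1 h against 6.62 and 6.78 in untreated cells, and the groups did not overlap. Its difference at 1 h was 0.38 ± 0.11 (SE), with a 95% interval of 0.14 to 0.62, and did not pass after adjustment (limma, adjusted p = 0.124). Against untreated cells at 0 h it was 0.58 and called (limma, adjusted p = 0.00373). Differences against untreated cells at 0 h, here and below, also hold the change of untreated cells over time. At 6 h, Per1 stood at 6.34 and 6.31 in treated against 6.81 and 6.56 in untreated cells and was called lower (−0.36 ± 0.11; adjusted p = 0.0386). That call was lost when either treated array was left out (adjusted p = 0.120 and 0.159) or the untreated replicate 1 (0.328, at a difference of −0.23). It was also lost in a fit to the 4 compared arrays (0.104), after centring arrays on their medians (0.0642) and in the test over all probe sets (0.0517), and against untreated cells at 0 h the difference was −0.17 (0.374). At 10 h, treated arrays at 6.73 and 6.78 lay below untreated arrays at 7.01 and 7.15, with a difference of −0.33 ± 0.11 (adjusted p = 0.0891), which passed with a further quantile normalization (0.0389), with array weights (0.0447) and in a fit to the 4 arrays (0.0494). The steps between times were not called for Per1; the largest, from 1 h to 3 h, was −0.47 ± 0.16 (adjusted p = 0.105).

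Of the 3 probe sets of Per2, whose product carries cryptochromes into the repressor complex, 1 rose. Probe set 1417602_at stood at 5.42 and 5.04 in treated against 4.55 and 3.82 in untreated cells at 1 h, and at 5.34 and 5.40 against 4.19 and 4.26 at 3 h. By 6 h its groups overlapped, at 4.20 and 4.00 against 4.31 and 3.71. The log2 difference was 1.05 ± 0.22 (SE; limma over 34945 probe sets, adjusted p = 0.0102) at 1 h, 1.15 ± 0.22 (adjusted p = 0.00109) at 3 h and 0.09 ± 0.22 at 6 h. The call at 1 h was lost when treated replicate 1 was left out (adjusted p = 0.205) or untreated replicate 2 (0.288, at a difference of 0.69), whose value of 3.82 lay below the 4.55 of its duplicate; it was also lost against untreated cells at 0 h (0.57; 0.288). The call at 3 h held without any of its 4 arrays. The fall of the difference from 3 h to 6 h, at −1.06 ± 0.31, was not called (adjusted p = 0.0829), and was without untreated replicate 2 at 6 h (−1.36; 0.0352).

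The other Per2 probe sets gave smaller values. At 3 h, 1417603_at stood at 5.01 and 5.31 against 4.87 and 4.65, a difference of 0.40 ± 0.19 (adjusted p = 0.224). The brightest, 1457350_at, which stood for the gene, differed by 0.07 ± 0.14 at 3 h (adjusted p = 0.855) with overlapping groups. With the mean of the 3 probe sets, Per2 differed by 0.54 at 3 h (adjusted p = 0.00943), so whether Per2 counts as changed turned on which probe set stands for it. All 3 lay near or below the array medians; 1417602_at exceeded them on 3 of 20 arrays. Per3, the least essential period gene for rhythm, did not pass against untreated cells of the same time with any of its 6 probe sets. Against untreated cells at 0 h, 1442243_at was called lower at 6 h (−0.46; adjusted p = 0.0185). At 10 h, 5 of the 6 had both treated arrays below both untreated ones (22.3% of all probe sets did), with log2 differences from −0.20 to −0.07, each smaller than 2 of its standard errors.

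**Figure D2:**
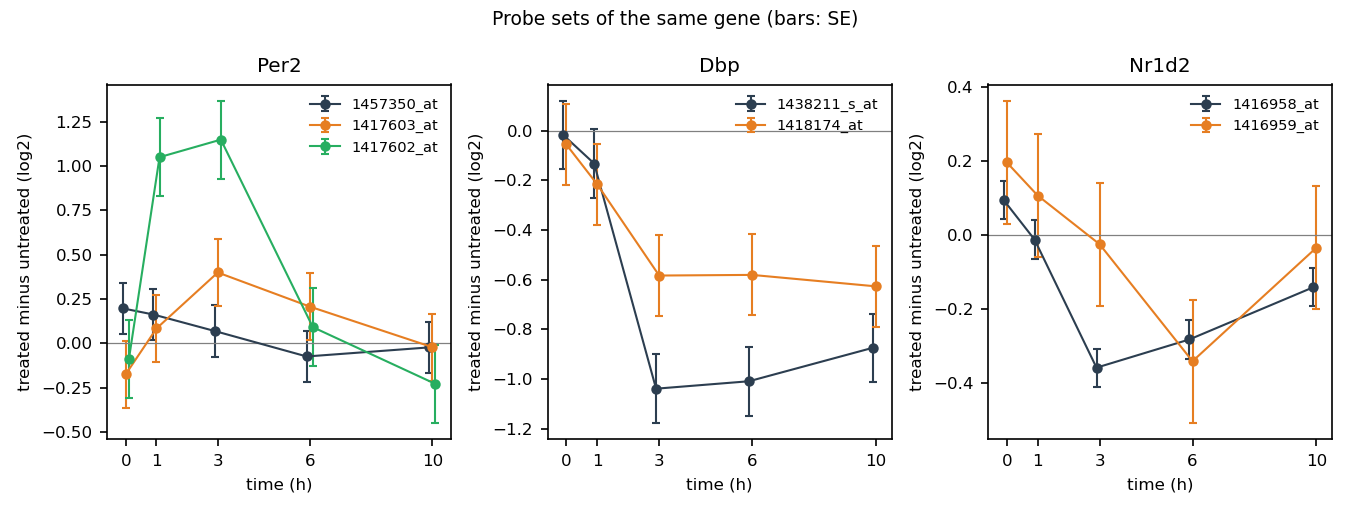
Treated minus untreated log2 difference against time in hours for each probe set of Per2, Dbp and Nr1d2, with standard errors as bars. For Per2, 1417602_at reaches 1.05 and 1.15 at 1 h and 3 h while 1457350_at stays at 0.16 and 0.07. Both Dbp probe sets are below 0 at 1 h too and are called from 3 h on. The Nr1d2 probe sets differ at 3 h.

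Neither cryptochrome gene was called in treated against untreated cells. Cry1, whose product is a strong repressor of CLOCK and BMAL1, stood at 6.50 and 6.44 in treated and 6.11 and 6.09 in untreated cells at 6 h. The groups did not overlap, and the difference of 0.37 ± 0.13 (SE) had an adjusted p of 0.0571 by limma. It passed with a further quantile normalization (adjusted p = 0.0353) and among genes above the median level (0.0351). Both groups were then below the 6.93 and 6.95 of untreated cells at 0 h. Treated cells at 6 h were 0.47 lower than those on the log2 scale. The 0.47 also holds the change of untreated cells from 0 h to 6 h (−0.84), so it is another quantity than the same-time difference. Cry2 ran from 6.40 to 6.80 over all arrays, with differences between −0.11 and 0.02 from 1 h to 10 h and a 95% interval of −0.22 to 0.26 at 3 h.

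The REV-ERB genes differed from each other in what could be measured. Nr1d2, which encodes REV-ERBβ, was lower in treated cells at 3 h, at 9.42 and 9.31 against 9.73 and 9.72, and at 6 h, at 9.83 and 9.75 against 10.10 and 10.04. At 1 h, its groups stood together, at 10.03 and 10.00 against 10.03 and 10.01, both below untreated cells at 0 h, against which the treated cells were lower by 0.34 (limma, adjusted p = 1.50e-04). The difference was −0.36 ± 0.05 (SE; limma, adjusted p = 1.83e-05) at 3 h, −0.28 ± 0.05 (adjusted p = 3.29e-04) at 6 h and −0.14 ± 0.05 (adjusted p = 0.0933) at 10 h. The change of the difference from 1 h to 3 h was −0.35 ± 0.07 (adjusted p = 0.00318). The dim probe set 1416959_at, which was below the array median on every array, differed by −0.02 ± 0.17 at 3 h and −0.34 ± 0.17 at 6 h, not called at either time, and with the mean of both probe sets the 3 h difference was −0.19 (adjusted p = 0.134) and the step from 1 h to 3 h was −0.24, not called. Nr1d1, for REV-ERBα, stood at 5.04 and 4.90 in treated against 5.15 and 5.31 in untreated cells at 3 h, near the array medians, with a difference of −0.26 and a 95% interval of −0.55 to 0.03 (adjusted p = 0.265).

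Dbp, the D-box activator whose transcript is a standard readout of clock output, showed the largest falls. It stood at 5.62 and 5.89 in treated against 6.69 and 6.90 in untreated cells at 3 h, at 6.12 and 5.79 against 7.07 and 6.85 at 6 h, and at 6.55 and 6.92 against 7.53 and 7.69 at 10 h. Both treated arrays lay below both untreated arrays at each of these times. The log2 difference was −1.04 ± 0.14 (SE; limma, adjusted p = 8.27e-06) at 3 h, −1.01 ± 0.14 (adjusted p = 1.39e-05) at 6 h and −0.87 ± 0.14 (adjusted p = 1.90e-04) at 10 h. At 1 h it was −0.13 ± 0.14 and not called, though both treated arrays lay below both untreated ones. The step from 1 h to 3 h was −0.91 ± 0.19 (limma, adjusted p = 0.00466). By size, Dbp was the 66th lowest of 18193 genes at 3 h, the 48th at 6 h and the 40th at 10 h.

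The other Dbp probe set, 1418174_at, gave smaller values of the same sign. It differed by −0.58 ± 0.16 at 3 h (limma over all probe sets, adjusted p = 0.0219), −0.58 ± 0.16 at 6 h (0.0230) and −0.63 ± 0.16 at 10 h (0.0239). Its call at 3 h was lost without any of the 4 arrays compared, with adjusted p between 0.0799 and 0.118, and at 6 h likewise, between 0.0762 and 0.110. At 10 h it was lost without either treated array (0.0579 and 0.221), in a fit to the 4 compared arrays (0.0582), and without untreated replicate 1, at 6.27 against 5.74 for its duplicate, when the difference was −0.37 (0.401). Against untreated cells at 0 h, the 10 h difference of this probe set was −0.15 (0.636) and that of the brighter one −0.36 (0.0578), neither called. The brighter probe set carries the suffix _s_at, which marks probes that can match more than 1 transcript. The genes closest to Dbp in pattern over the 20 arrays were Trim24 (Pearson r = 0.953) and Kif5c (0.951), those closest to Nr1d2 were Pik3r3 (0.886) and H2bc21 (0.865), and those closest to Per1 were Id3 (0.859) and Fos (0.853).

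**Figure D3:**
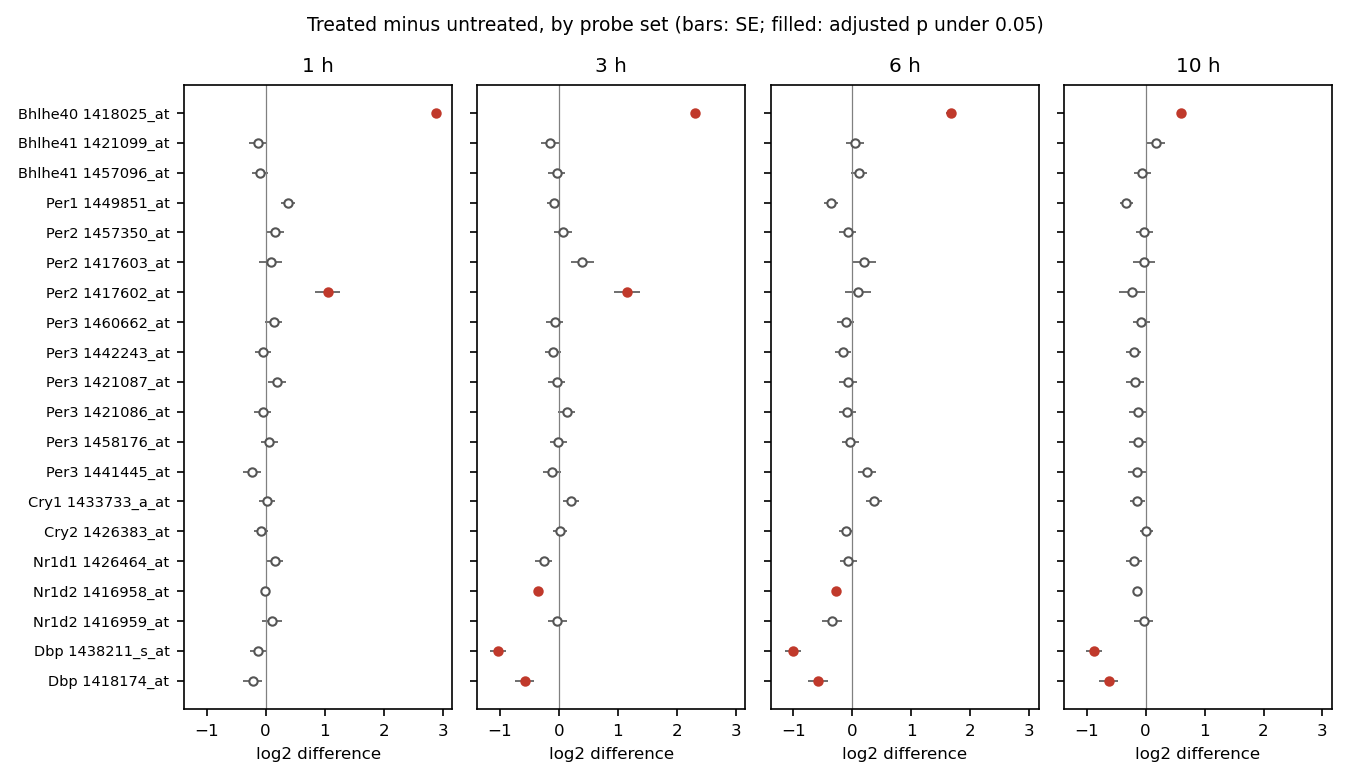
Treated minus untreated log2 differences of all 20 probe sets at 1, 3, 6 and 10 h, with standard errors as bars; filled points had an adjusted p under 0.05 in the fit to all probe sets with 1 gene. Bhlhe40 is filled at all 4 times, Per2 1417602_at at 1 h and 3 h, Nr1d2 1416958_at at 3 h and 6 h, and both Dbp probe sets from 3 h to 10 h.

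Untreated cells changed as well, and this drift is the ground on which each treated value stands. The comparisons of later times share the 2 untreated arrays at 0 h, and the untreated arrays of each time also serve the treated comparison, so the values are not independent. At 1 h 0 of the 10 genes were higher (0.104% of all genes) and 1 was lower (0.0824%), at 3 h 1 was higher (4.95%) and 2 were lower (3.21%), and at 6 h 1 was higher (10.4%) and 2 were lower (10.3%). Nr1d2 fell from 10.35 and 10.35 at 0 h to 10.03 and 10.01 at 1 h and 9.73 and 9.72 at 3 h, then stood at 10.10 and 10.04 at 6 h and at 10.55 and 10.47 at 10 h. The difference from 0 h was −0.33 ± 0.05 (SE; limma, adjusted p = 0.00637) at 1 h, −0.63 ± 0.05 (adjusted p = 6.44e-08) at 3 h, −0.28 ± 0.05 at 6 h and 0.16 ± 0.05 (adjusted p = 0.0177) at 10 h. Nr1d2 thus dipped in untreated cells at the time when it was lowest in treated cells. Its call at 1 h was lost without either untreated array at 0 h (adjusted p = 0.0785 and 0.0672) and without replicate 2 at 1 h (0.0737), and the one at 10 h without either array at 0 h (0.0727 and 0.0773) or replicate 1 at 10 h (0.190). With the mean of both probe sets the differences were −0.20 at 1 h (0.574), −0.12 at 6 h (0.337) and 0.19 at 10 h (0.103), none called. The 1 h call was also lost in a fit to the compared arrays (0.215) and without the variance trend (0.120), and the 10 h call after median centring (0.0640), without the trend (0.0560) and against all 4 arrays at 0 h (0.0622).

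Cry1 fell in untreated cells, from 6.93 and 6.95 at 0 h to 6.37 and 6.57 at 3 h, 6.11 and 6.09 at 6 h and 6.42 and 6.24 at 10 h. Its mean was already 6.48 at 1 h, a difference of −0.46 ± 0.13 that was not called (limma, adjusted p = 0.239). The difference from 0 h was −0.47 ± 0.13 (SE; limma, adjusted p = 0.0269) at 3 h, −0.84 ± 0.13 (adjusted p = 6.21e-05) at 6 h and −0.62 ± 0.13 (adjusted p = 9.01e-04) at 10 h. Bhlhe40 rose without TGFβ1 by 0.25 ± 0.07 at 3 h (adjusted p = 0.0250), 0.44 ± 0.07 at 6 h and 0.27 ± 0.07 at 10 h. At 3 h the calls of Cry1 and Bhlhe40 were each lost without any of the 4 arrays compared, with adjusted p from 0.0513 to 0.220 for Cry1 and from 0.0947 to 0.148 for Bhlhe40.

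By 10 h, 5 of the 10 genes, Per1, Nr1d1, Dbp, Bhlhe40 and Nr1d2, were higher than at 0 h in untreated cells (13.3% of all genes were) and 1, Cry1, was lower (12.8%). Per1 rose by 0.59 ± 0.11 (SE; limma, adjusted p = 4.89e-04), Nr1d1 by 0.54 ± 0.14 (adjusted p = 0.00517) and Dbp by 0.52 ± 0.14 (adjusted p = 0.00671). Nr1d1 lost its call without replicate 2 at 0 h (adjusted p = 0.0862) and without replicate 1 at 10 h (0.0885), and Dbp without replicate 2 at 10 h (0.0826). Of the 20 probe sets, 8 were called at 10 h (20.7% of all probe sets), among them Per2 1417602_at, which fell by 0.65 ± 0.22 (adjusted p = 0.0398), a call lost without any of the 4 arrays (adjusted p from 0.0881 to 0.196). Bhlhe41, Cry2, Per3 and the brightest Per2 probe set were not called at any time in this fit. Per2 1417602_at had means of 4.01 at 6 h and 4.66 at 0 h, a fall not called in this fit. By limma that fall passed with a further quantile normalization (adjusted p = 0.0448), median centring (0.0473) and a replicate block (0.0419). It also passed against all 4 arrays at 0 h (−0.60, adjusted p = 0.0253). Per3 was called at 10 h with the mean of its probe sets (0.26; adjusted p = 0.0497), and its probe set 1441445_at with array weights (0.40; 0.0418) and against all 4 arrays at 0 h (0.55; 0.00490).

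**Figure D4:**
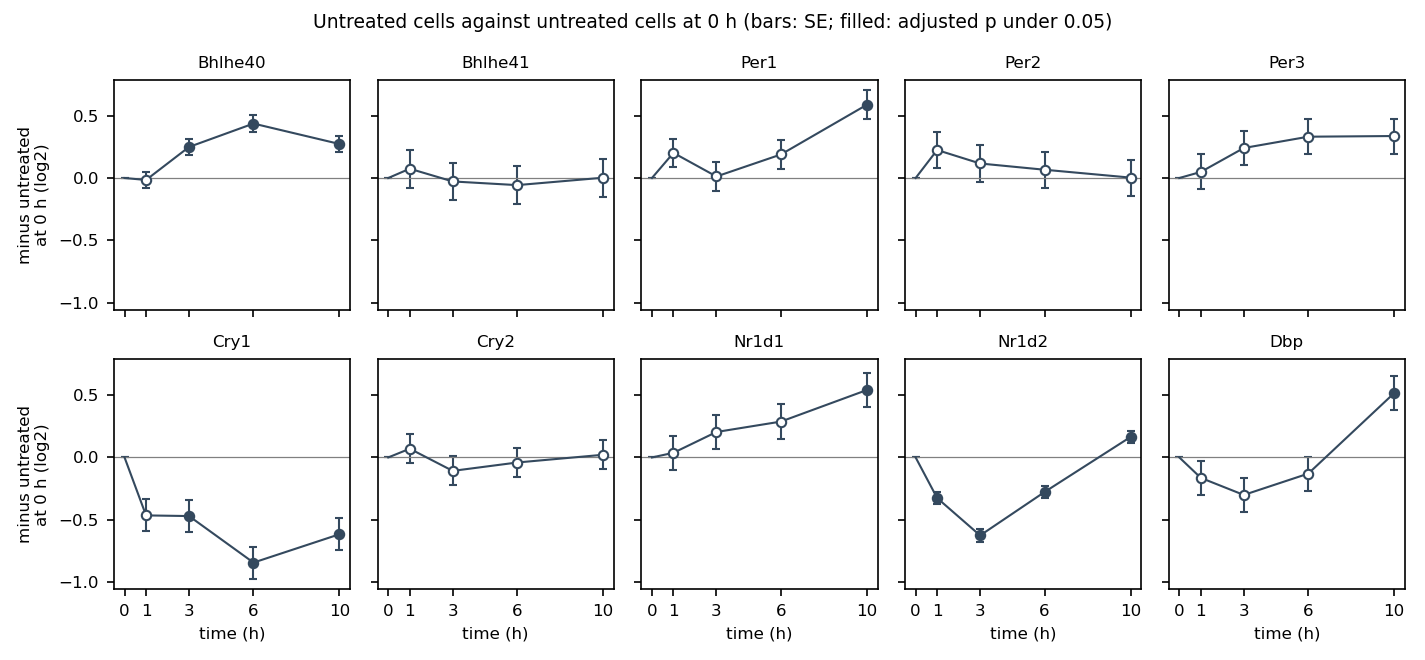
Log2 difference of untreated cells at 1, 3, 6 and 10 h from untreated cells at 0 h for the 10 clock genes, each by its brightest probe set, with standard errors as bars and filled points where the adjusted p was under 0.05. Nr1d2 reaches −0.63 at 3 h and 0.16 at 10 h, Cry1 −0.84 at 6 h, and Per1 0.59 at 10 h.

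The remaining clock genes were followed through 3 lists. Of 6 measured genes of the positive arm and the ROR receptors, 0 were called at 1 h, 1 was lower at 3 h (8.55% of all genes were) and 0 were called at 6 h and 10 h. The list's median difference was 0.10 at 1 h, −0.07 at 3 h, −0.04 at 6 h and 0.12 at 10 h, beside all-gene medians between −0.03 and −0.0030. That 1 was Arntl, at 7.56 and 7.49 in treated against 7.73 and 7.87 in untreated cells (−0.27 ± 0.08, SE; limma, adjusted p = 0.0161), and its difference moved by 0.46 ± 0.11 from 3 h to 6 h (adjusted p = 0.0143). In untreated cells Arntl rose by 0.42 at 3 h, 0.53 at 6 h and 0.61 at 10 h (adjusted p = 2.82e-06). Rora, whose product activates Arntl, rose by 0.51 at 6 h and 0.73 at 10 h, and Clock fell by 0.44 at 6 h and by 0.44 at 10 h. In the test over all probe sets, only the brighter of the 2 Arntl probe sets and the brightest of the 4 Clock probe sets were called.

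Of 10 kinases, ligases and partners of the PER and CRY proteins, 1 was higher at 1 h (1.91% of all genes were), 2 at 3 h (6.73%), 3 at 6 h (7.77%) and 2 at 10 h (5.07%), and 1 was lower, at 6 h (7.96%). The list's median difference was 0.0029, 0.04, 0.11 and 0.02 at these times. Csnk1e, the casein kinase 1 gene whose product phosphorylates PER proteins, was higher at all 4 times: 10.20 and 10.18 against 9.72 and 9.88 at 1 h, 10.68 and 10.73 against 9.78 and 9.75 at 3 h. Its difference was 0.39 ± 0.05 (SE; limma, adjusted p = 5.39e-05) at 1 h, 0.94 ± 0.05 (adjusted p = 3.33e-11) at 3 h, 0.49 ± 0.05 at 6 h and 0.32 ± 0.05 at 10 h. The ubiquitin ligase gene Fbxw11 was higher by 0.27 at 3 h, 0.17 at 6 h and 0.14 at 10 h, and Gsk3b by 0.24 at 6 h. Timeless was lower by 0.24 at 6 h. In the test over all probe sets, only the brightest of the 6 Gsk3b probe sets and the brighter of the 2 Timeless probe sets were called at 6 h. Of the 5 Fbxw11 probe sets, a dimmer one was called at 10 h (0.18) and the brightest was not. In untreated cells against 0 h, 2 of the 10 were lower at 3 h (3.21% of all genes were), 2 higher (10.4%) and 3 lower (10.3%) at 6 h, and 3 higher (13.3%) and 2 lower (12.8%) at 10 h, where Timeless fell by 0.83 and Sirt1, for a deacetylase, by 0.51, and Csnk1e rose by 0.33.

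Of 9 output genes and D-box factors, 2 were higher at 1 h (1.91% of all genes were) and 0 lower (0.324%), 2 were higher (6.73%) and 2 lower (8.55%) at 3 h, 2 were lower at 6 h (7.96%) and 1 was lower at 10 h (4.06%). The list's median difference was −0.01, 0.08, −0.11 and −0.09 at these times. Nfil3, the repressor that competes with DBP, stood at 7.78 and 7.95 in treated against 6.38 and 6.07 in untreated cells at 1 h and at 7.79 and 7.52 against 6.55 and 6.67 at 3 h. Its difference was 1.65 ± 0.15 (SE; limma, adjusted p = 1.29e-07) at 1 h and 1.04 ± 0.15 (adjusted p = 2.48e-05) at 3 h, and moved by −1.03 ± 0.21 from 3 h to 6 h (adjusted p = 0.00616). Noct, which encodes the rhythmic enzyme nocturnin, was higher by 0.88 ± 0.07 at 1 h and 0.34 ± 0.07 at 3 h. Tef, a PAR bZIP relative of Dbp, was lower by 0.38 ± 0.07 at 3 h (limma, adjusted p = 4.55e-04) and by 0.32 ± 0.07 at 10 h (adjusted p = 0.00448). Only the brightest of its 3 probe sets was called in the test over all probe sets. Nampt, an enzyme of NAD synthesis, was lower by 0.51 ± 0.08 at 3 h and 0.43 ± 0.08 at 6 h. Alas1, for heme synthesis, was lower by 0.20 ± 0.06 at 6 h, where none of its probe sets passed in the test over all probe sets. In untreated cells against 0 h, 2 of the 9 genes were higher (4.95% of all genes were) and 1 was lower (3.21%) at 3 h. Higher genes numbered 3 at 6 h (10.4%) and 4 at 10 h (13.3%), where Noct rose by 0.48, Nampt by 0.46, Nfil3 by 0.50 and Tef by 0.30.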

How the data were processed

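Per the labels, RNA of each Hepa1-6 culture was labelled as biotinylated cRNA and hybridised to its own array. Per the submitters' processing notes, the authors used RMA, and the deposited values are log2 expression per probe set; for version, chip description file and genome build: not given in the sources used here. The method corrects background, equalises array distributions by quantiles and summarises probes, so differences are relative to other transcripts and are compressed for dim probe sets. No detection calls were used.

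Of 45037 probe sets, 34945 had 1 gene in the platform annotation, 932 several and 9160 none. The brightest probe set stood for a gene. The test was limma (3.58.1; R 4.3.3) on all 20 arrays, 1 mean per group (10 residual degrees of freedom), with eBayes and a variance trend; p-values were adjusted by Benjamini-Hochberg over 18193 genes, or 34945 probe sets, per comparison, at a threshold of 0.05. The median standard error was 0.13; 2 arrays per group limit the precision. The fit was tested on simulated data.

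The genes and lists were chosen with earlier results of these data known. All 10 genes are reported with all probe sets. Other clock genes are named where called in treated against untreated cells of the same time, up to 4 per list and comparison, lowest adjusted p first. In the other comparisons some called genes are counted without a name or left out. Genes alike in pattern were ranked by Pearson r. Alternatives covered probe set choice, normalization, centring, dim genes, arrays fitted, variance trend, array weights, replicate block, references and each array left out.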

Additional observations from a re-analysis of the deposited data

Results flagged for a closer look

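The treated-minus-untreated difference changed between times for 3 genes. For Bhlhe40 it changed by −0.57 from 1 h to 3 h, by −0.65 from 3 h to 6 h and by −1.06 from 6 h to 10 h. For Nr1d2 it changed by −0.35 and for Dbp by −0.91 from 1 h to 3 h. Each change passed limma's test of the difference itself. Groups of 2 arrays allow no test for a single stray array.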

How the results depend on the processing

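A count of called clock genes can stay while its genes change. At 3 h with the mean of all probe sets it stayed at 3, but Nr1d2 lost its call and Per2 was called higher. At 6 h, Per1 lost its call in several alternatives. Against untreated cells at 0 h, the count stayed at 4 at 6 h and at 2 at 10 h. Cry1 was then called lower in place of Per1 at 6 h, and in place of Dbp at 10 h (−0.76, limma adjusted p = 9.31e-05). Per2 1417602_at was also called lower at 10 h against that reference (−0.88, adjusted p = 0.00519). The counts stayed within 1.5 times the main count under every alternative run, except the following. At 1 h, 3 genes in place of 1 were called against untreated cells at 0 h. For untreated cells at 1 h against 0 h, the count of 1 became 0 with the mean of all probe sets, with the compared arrays alone and without the variance trend, and was 0 to 1 without single arrays. For untreated cells at 3 h, the count of 3 became 1 without the variance trend and was 1 without any single array. Cry1 at 6 h had the other sign, at −0.47, against untreated cells at 0 h. Differences from that reference also hold the change of untreated cells over time (−0.84 for Cry1 at 6 h), so they are another quantity than same-time differences.

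With the replicate number as a block, the counts were those without it: 1, 3, 4 and 2 clock genes at 1, 3, 6 and 10 h. The deviations of same-numbered arrays correlated between −0.20 and 0.21 over 45 pairs of groups, above 0.1 in 5 and under −0.1 in 4. Such correlations cannot show whether same-numbered cultures were handled together, and the samples were not paired in the main fit. The treated differences of Bhlhe40 kept their call and direction under every alternative. The treated differences of Dbp by its brighter probe set did so too, except at 10 h against untreated cells at 0 h (−0.36, adjusted p = 0.0578); its other probe set lost calls at 3, 6 and 10 h. Array number and dimness limit Bhlhe41, Per2, Per3 and Nr1d1.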
